A study of Mus musculus with 10 samples.

Results

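The genes described here are 7 kappa light-chain V genes of the IGKV9 and IGKV14 families: IGKV9-120, IGKV9-123, IGKV9-124, IGKV9-129, IGKV14-100, IGKV14-111 and IGKV14-130. They were chosen by name, as clonotypes assigned to exactly 1 of these genes, and make up 7 of the 103 *Igkv* genes that had a clonotype of their own. A clonotype is an entry with a joined V and J gene and a CDR3, the loop that both form together at their junction. Entries of a library can share the same V gene, J gene and CDR3. Of 44103 clonotypes in all, 2226 (5.05%) carried a member, and these held 47023 of 1585211 reads (2.97%). A further 19 clonotypes named a member together with another V gene and were counted to no gene. The families also hold IGKV9-128 and IGKV14-126, which are not members and are given only for comparison.

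The rearranged *Igk* locus was amplified from genomic DNA of sorted peritoneal cavity B cells in 6 libraries, 2 per group. All mice were C57BL/6 and 6 to 8 weeks old. WT B-1a and WT B-2 cells came from wild-type mice. Igll1-/- B-1a cells came from knockouts of *Igll1*, which encodes a part of the surrogate light chain (SLC), so that no pre-BCR forms in these mice. B-1a cells were sorted as B220lo CD5+ and B-2 cells as B220+. How many mice went into a library is not stated in the labels, so the spread between replicates may be partly technical. The measurement is of DNA, and the cell labels could not be checked against marker transcripts.

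A developing B cell joins a V gene to a J gene at the *Igk* locus, and a join that keeps the reading frame without a stop gives a light chain that can pair with the heavy chain. A cell can rearrange the locus again, and unused or out-of-frame joins can stay in its genome, so DNA libraries hold productive and unproductive joins alike. B-1a cells are self-renewing cells of the body cavities that arise largely in fetal life and are known for a restricted, self-reactive repertoire, whereas B-2 cells are the conventional follicular cells. The study sequenced the light chains to see whether B-1a cells made without SLC use the same V genes as wild-type ones.

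In the RefSeq annotation of GRCm38.p6 all 7 members are listed as V segments rather than pseudogenes. Counted from the end of the cluster farthest from the J genes, IGKV14-130 was the 9th of 162 annotated *Igkv* genes, IGKV9-129 the 10th, IGKV9-124 the 16th, IGKV9-123 the 17th, IGKV9-120 the 20th, IGKV14-111 the 31st and IGKV14-100 the 44th. The members thus lie within a stretch of 36 annotated genes, of which 18 are pseudogenes. The deposited tables mark the allele of IGKV9-129 as an open reading frame (ORF), a gene whose coding part is intact but whose other features may hinder its use, and those of the other 6 members as functional.

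The CDR3 sequences show what each gene brings to the antigen-binding site, and the productive CDR3 with the most reads over the 6 libraries is given for each gene.

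IGKV9-120: LQYASSPLT

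IGKV9-129: LQYASSPLT

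IGKV9-124: LQYASYPYT

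IGKV9-123: LQRNAYPLT

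IGKV14-111: LQYDEFPLT

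IGKV14-130: LQFYEFPLT

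IGKV14-100: VQYAQFPLT

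All but that of IGKV9-124 were joined to IGKJ5 and end in LT, and that of IGKV9-124 was joined to IGKJ2 and ends in YT. That of IGKV9-129 was productive in 1 library (176 reads, WT B-2 replicate 1), and its next productive CDR3, LQYASSPPT, had 94 reads, also in 1 library. That of IGKV9-124 was productive in 2 libraries with 193 reads, close to LQYASYPWT joined to IGKJ1 with 185. IGKV9-120 and IGKV9-129 had the same CDR3, and their opening 6 letters, LQYASS, differ from the LQYASY of IGKV9-124 by 1 letter. IGKV14-111 and IGKV14-130 share 4 of 6 letters. IGKV9-123 and IGKV14-100 share 1 of 6. These openings carried most reads of each gene, from 77.2% in IGKV9-124 to 96.4% in IGKV9-129 and IGKV14-100. They carried fewer of the clonotypes, from 28.8% in IGKV14-111 to 63.2% in IGKV9-129. CDR3s of 9 residues made up 69.7% (IGKV9-129) to 92.7% (IGKV9-124) of clonotypes. IGKV9-129 also had 10 residues in 27.6%, and IGKV14-111 had 8 residues in 11.8%.

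Libraries held 5701 to 8652 clonotypes from 214000 to 288396 reads, and 57.7% to 59.2% of clonotypes in a library rested on 1 read. Near-identical clonotypes made up 59.3% to 62.1% of a library. They share V gene, J gene and CDR3 length with a clonotype of at least 10 times their reads. Their CDR3 differs from that of the larger clonotype by at most 1 residue. How many of them are separate joins was not tested. A count of 3 clonotypes corresponds to 0.0347% to 0.0526% of a library. Intervals below are Wilson 95% intervals and cover counting error only, since PCR reads without molecular identifiers are not independent molecules. One degenerate V primer was combined with added primers for some B-1a-biased genes, so the level of a gene also depends on how well it was amplified. Shares are relative, so fewer joins of a gene and more joins of other genes cannot be told apart.

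IGKV14-111 was the most used member and the only 1 that passed the test in any comparison. It took 1.48% and 1.57% of clonotypes in WT B-1a cells, 2.35% and 2.97% in Igll1-/- B-1a cells, and 2.73% and 2.62% in WT B-2 cells. Both WT B-1a libraries lay below the other 4, which overlapped. In WT B-2 cells it ranked 5th and 6th of all V genes, and in WT B-1a cells 19th and 17th. Its share was 2.66% ± 0.44 (SD, n = 2) in Igll1-/- against 1.52% ± 0.06 (SD, n = 2) in WT B-1a cells, and the log2 fold change was 0.81 (SE 0.22, edgeR quasi-likelihood, Benjamini-Hochberg adjusted p over 84 V genes = 0.0264). Against WT B-2 cells, at 2.68% ± 0.07 (SD, n = 2), the log2 fold change of Igll1-/- B-1a cells was −0.01 (SE 0.22, edgeR adjusted p = 0.974). For WT B-1a against WT B-2 cells it was −0.81 (SE 0.22) and missed the threshold with an edgeR adjusted p of 0.0662. The call between the B-1a groups was lost by reads (1.26, edgeR adjusted p = 0.111), with only clonotypes of at least 10 reads (0.27, edgeR adjusted p = 0.703), and with the 4 B-1a libraries alone (0.81, edgeR adjusted p = 0.129). It was also lost without either WT B-1a library or either WT B-2 library, at edgeR adjusted p-values from 0.0966 to 0.168. Leaving out a library leaves its group with 1, which is then assumed to vary like the other groups.

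IGKV9-120 and IGKV14-130 differed most between the Igll1-/- replicates. IGKV14-130 had 49 and 25 clonotypes in WT B-1a, 15 and 146 in Igll1-/- B-1a, and 76 and 85 in WT B-2 libraries. Igll1-/- replicate 1 was thus the lowest of the 6 libraries at 0.263% (interval 0.160% to 0.434%) and replicate 2 the highest at 2.10% (1.79% to 2.47%), an 8.00-fold difference within 1 group. By reads replicate 2 was not the highest, at 0.438% between the WT B-2 libraries at 0.427% and 0.507%. Its clonotypes had a median identity to the V gene of 93.2%, against 96.1% to 98.0% in the other libraries, and 54 of 146 were productive. The fit over both Igll1-/- replicates gave 1.20 on the log2 scale (SE 0.71, edgeR adjusted p = 0.296) against WT B-1a and 0.36 (SE 0.68, edgeR adjusted p = 0.713) against WT B-2 cells. With near-identical clonotypes merged, the value against WT B-1a cells was 1.78 and passed (edgeR adjusted p = 6.90e-05), where 17 of 80 V genes were called. This pass rests on the same Igll1-/- libraries, which differed 8.00-fold before merging, and gives no separate support. The sign depended on the Igll1-/- library used: against WT B-1a cells the value was 2.01 without replicate 1 and −0.98 without replicate 2, and against WT B-2 cells it was 1.17 and −1.82. These 4 values rest on 1 Igll1-/- library each, their fits take the spread from the other groups and leave out the 8.00-fold difference, and their p-values are therefore not given.

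IGKV9-120 had 39 and 30 clonotypes in WT B-1a, 23 and 84 in Igll1-/- B-1a, and 49 and 69 in WT B-2 libraries. Here too Igll1-/- replicate 1 was the lowest in share, at 0.403%, and replicate 2 the highest, at 1.21%. The log2 fold change between the B-1a groups was 0.74 (SE 0.52, edgeR adjusted p = 0.360), and it was 1.32 without Igll1-/- replicate 1 and −0.27 without replicate 2, each resting on 1 Igll1-/- library. The excess in Igll1-/- replicate 2 was mainly of clonotypes with IGKJ2, with 38 there and 4 to 14 in each other library. How many of the 38 are separate joins was not tested.

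**Figure D1:**
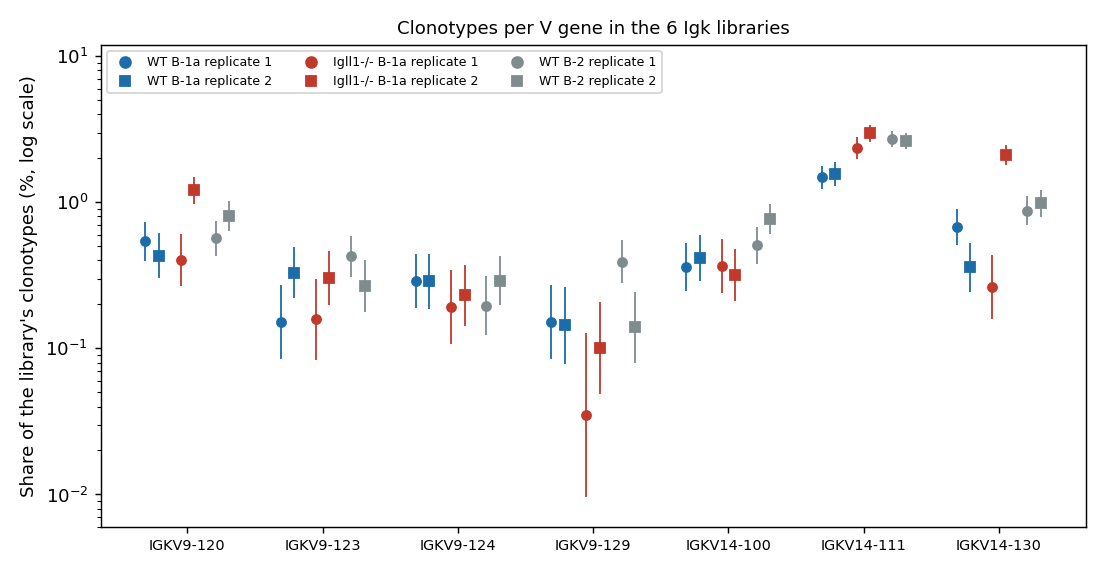
Share of the library's clonotypes (percent, log scale) for each of the 7 V genes. Each point is 1 library, bars are Wilson 95% intervals, circles are replicate 1 and squares replicate 2. IGKV14-111 is lowest in both WT B-1a libraries, and for IGKV14-130 the Igll1-/- B-1a replicates lie at 0.263% and 2.10%, below and above all other libraries.

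The remaining 4 genes were little used. IGKV14-100 took 0.359% and 0.416% of clonotypes in WT B-1a, 0.368% and 0.317% in Igll1-/- B-1a, and 0.509% and 0.766% in WT B-2 libraries. Both WT B-2 libraries lay above the 4 B-1a libraries, which overlapped. Its log2 fold change was −0.90 (SE 0.43, edgeR adjusted p = 0.160) for Igll1-/- B-1a and −0.71 (SE 0.42, edgeR adjusted p = 0.347) for WT B-1a against WT B-2 cells. IGKV9-124 took 0.193% to 0.290% of clonotypes in all 6 libraries, with log2 fold changes between −0.44 and 0.25 and edgeR adjusted p-values of at least 0.552.

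IGKV9-123 had 11 and 23 clonotypes in WT B-1a, 9 and 21 in Igll1-/- B-1a, and 37 and 23 in WT B-2 libraries. By clonotypes the groups overlapped, and edgeR adjusted p-values were 0.447 to 0.954. By reads IGKV9-123 held 0.0154% and 0.0157% in Igll1-/- B-1a, 0.0204% and 0.103% in WT B-1a, and 0.176% and 0.166% in WT B-2 libraries. The fit on reads gave a log2 fold change of −3.45 for Igll1-/- B-1a against WT B-2 cells and missed the threshold (edgeR adjusted p = 0.0606). With only productive clonotypes it was −1.90 and passed (edgeR adjusted p = 0.0255), where 20 of 79 V genes were called. That value rests on 3 and 4 productive clonotypes in the Igll1-/- libraries and 22 and 15 in the WT B-2 libraries. The gene met the count filter there only through WT libraries, so the pass gives no separate support. The gene's main CDR3, LQRNAYPLT joined to IGKJ5, had 289 and 254 reads in the WT B-2 libraries, 18 and 77 in WT B-1a, and 3 and 12 in Igll1-/- B-1a.

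IGKV9-129, the ORF gene, had the fewest clonotypes over the 6 libraries together (76), though not in WT B-2 replicate 1. It had 11 and 10 clonotypes in WT B-1a, 2 and 7 in Igll1-/- B-1a, and 34 and 12 in WT B-2 libraries. Both Igll1-/- libraries were the lowest in share, at 0.0351% and 0.101%, and WT B-2 replicate 1 was the highest, at 0.393%. The log2 fold change of Igll1-/- B-1a against WT B-2 cells was −1.90 (SE 0.70, edgeR adjusted p = 0.0718), the smallest p-value of a member in that comparison. The gene met the count filter only through WT libraries, so this value gives no separate support. Without a filter on low counts the fold change passed (−1.90, edgeR adjusted p = 0.0442), where 23 of 103 V genes were called. That pass rests on the same clonotype counts. The fold change was −0.98 without WT B-2 replicate 1, where 1 WT B-2 library was left.

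Counted over all V genes, 1 of 7 members passed between Igll1-/- and WT B-1a cells, where 15 of 84 tested genes (17.9%) did. No member passed between Igll1-/- B-1a and WT B-2 cells, where 19 of 84 (22.6%) did, nor between WT B-1a and WT B-2 cells, where 3 of 84 (3.57%) did. In each of these 2 comparisons 1 member had an unadjusted p under 0.05, and DESeq2 likewise called 0 members. The median log2 fold change of the 7 members was −0.04 between the B-1a groups, beside −0.17 over all 84 genes. It was −0.19 beside −0.49 for Igll1-/- B-1a and −0.71 beside −0.22 for WT B-1a, both against WT B-2 cells. The comparisons share libraries and are not independent.

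The other IGKV9 and IGKV14 genes that were tested, IGKV14-126 and IGKV9-128, are given side by side. The share of IGKV14-126 was 5.09% ± 0.28 in WT B-1a cells, against 0.709% ± 0.036 for Igll1-/- B-1a cells and 1.56% ± 0.13 for WT B-2 cells (SD, n = 2 each). Its log2 fold change between Igll1-/- and WT B-1a cells was −2.84 (SE 0.22, edgeR adjusted p = 4.03e-06), and that of IGKV9-128 was −2.35 (SE 0.25, edgeR adjusted p = 5.63e-05). Both were called in all 3 comparisons. The V genes numbered 100 to 130 that are not members, which are the members' neighbours in the locus, included 10 tested genes. Of these 2 were called higher and 3 lower between the B-1a groups, with a median of −0.12. The difference between the members and these genes was not tested.

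**Figure D2:**
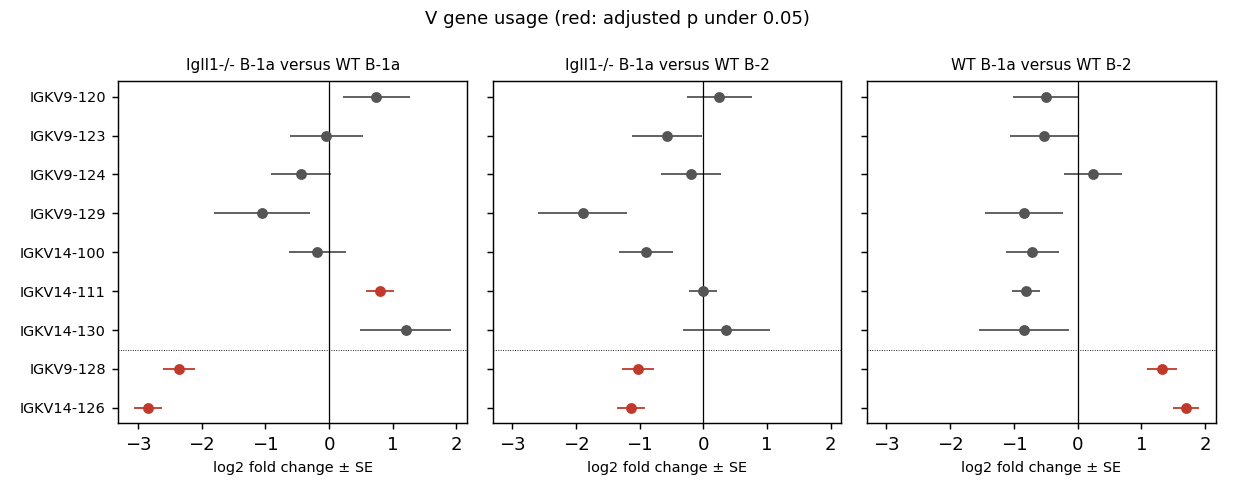
Log2 fold change in share of clonotypes with its standard error (edgeR), for the 7 members above the dotted line and IGKV9-128 and IGKV14-126 below it, in 3 comparisons. Red points have an adjusted p under 0.05. Among the members this holds for IGKV14-111 between the B-1a groups (0.81), while IGKV9-128 and IGKV14-126 are red in every panel.

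Together the members took 3.65% and 3.53% of clonotypes in WT B-1a, 3.77% and 7.23% in Igll1-/- B-1a, and 5.70% and 5.87% in WT B-2 libraries. In reads they took 1.69% and 1.65%, 1.86% and 4.08%, and 3.89% and 4.15%. The WT B-1a libraries were the lowest in both measures, and the Igll1-/- replicates lay far apart, the higher one above both WT B-2 libraries by clonotypes and between them by reads. IGKV14-111 made up 40.5% to 62.3% of the members' clonotypes in a library.

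A few CDR3s carried most of the reads of the more used genes. In IGKV14-111 the CDR3 LQYDEFPLT joined to IGKJ5 had 694 and 781 reads in WT B-1a, 765 and 5185 in Igll1-/- B-1a, and 2889 and 2680 in WT B-2 libraries. It was the largest IGKV14-111 clonotype in all 6 libraries, at 27.6% to 41.9% of the gene's reads in 5 of them and 70.8% in Igll1-/- replicate 2. With all its clonotypes, IGKV14-111 held 0.808% and 0.848% of reads in WT B-1a, 1.30% and 2.67% in Igll1-/- B-1a, and 2.39% and 2.35% in WT B-2 libraries. With this clonotype left out, IGKV14-111 held 0.558% and 0.531% of the remaining reads in WT B-1a, 0.941% and 0.793% in Igll1-/- B-1a, and 1.40% and 1.44% in WT B-2 libraries. The clonotype was picked by its reads, and no test was run on these shares. LQYDEFPYT joined to IGKJ2 was the next CDR3, with 396 to 1477 reads in each library. A shorter form, LQYDELYT joined to IGKJ2, had 603 reads in Igll1-/- replicate 1 and 5 to 116 in the other libraries. CDR3s of 8 residues accordingly took 23.7% of the gene's reads in Igll1-/- replicate 1 and 1.24% in replicate 2, with 7.60% to 10.6% in the other libraries.

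In IGKV14-100 the order of the CDR3s differed between the libraries. VQYAQFPLT joined to IGKJ5 led in both WT B-1a libraries (351 and 180 reads) and both WT B-2 libraries (325 and 485 reads). It had 69 and 2 reads in the Igll1-/- libraries, where VQYAQFPYT (144 reads, replicate 1) and VQYAQFPPT (225 reads, replicate 2) led instead. VQYAQFRT joined to IGKJ1 was found in both Igll1-/- libraries (90 and 20 reads) and in no other library. VQYAQFPPLT joined to IGKJ5 was found in both WT B-1a libraries (20 and 51 reads) and in no other. These CDR3s were chosen after their reads were seen, and no test was run on them.

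In IGKV14-130 LQFYEFPLT joined to IGKJ5 had 112 and 107 reads in WT B-1a, 14 and 422 in Igll1-/- B-1a, and 670 and 806 in WT B-2 libraries. In IGKV9-120 LQYASSPLT joined to IGKJ5 led in 5 libraries with 282 to 591 reads. In Igll1-/- replicate 2 it had 506 reads and LQYASSPYT joined to IGKJ2 had 917, against 37 to 143 elsewhere. IGKV9-124 and IGKV9-129 had no steady leader. Their largest clonotype differed among libraries and held 22.3% to 92.5% of the gene's reads, the last in Igll1-/- replicate 2 of IGKV9-129, where 74 of 80 reads were LQYASSPYT. LQYASSPLT also occurred under IGKV9-124, with 15 to 36 reads in every library and never flagged productive there. Of the 110 IGKV9-124 clonotypes, 32 opened with LQYASS, the main opening of IGKV9-120 and IGKV9-129. LQYDEFPLT was listed under 6 members and LQYASSPLT under 5. The counts of each member rest on the V gene assigned, and how sure that assignment is was not tested.

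Of the 1362 combinations of V gene, J gene and CDR3 among the members, 47 occurred in all 6 libraries, and these held 79.6% of the members' reads. Over all V genes, combinations found in all 6 libraries held 84.6% of reads. IGKV14-111 supplied 28 of the 47, IGKV9-120 supplied 7, IGKV14-100 supplied 4 and IGKV14-130 supplied 3. In IGKV9-124 and IGKV9-129 such combinations held 15.6% and 19.4% of reads.

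Clonotypes marked productive in the tables made up very different parts of the 7 genes. What led to the mark is not given clonotype by clonotype, and whether it reflects the join itself was not tested. Over the 6 libraries they were 93.3% of clonotypes in IGKV14-111, 89.9% in IGKV14-100, 50.0% in IGKV9-123, 46.0% in IGKV14-130, 10.9% in IGKV9-124, 10.2% in IGKV9-120 and 9.21% in IGKV9-129. The median over the 84 V genes with at least 40 clonotypes was 92.3%, and 5 members were among the 7 lowest of them. The lowest of all was IGKV9-128, at 1.59%, which the tables mark as a pseudogene. By reads the order changed: 76.6% of IGKV9-120 reads and 93.6% of IGKV14-130 reads were productive, because the productive clonotypes were large. In IGKV9-120 30 productive clonotypes held 4255 reads and 264 unproductive ones 1298.

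Among the unproductive clonotypes of these genes few had a stop in the CDR3. In IGKV9-120 this was the case for 16 of 264, in IGKV14-130 for 10 of 214, in IGKV9-124 for 3 of 98, in IGKV9-129 for 2 of 69 and in IGKV9-123 for 1 of 62. In IGKV14-111, by contrast, 52 of 68 had one, while in IGKV14-100, which was mostly productive, it was 2 of 21. Over all V genes 2363 of 5564 unproductive clonotypes had no stop in the CDR3. Of these 2363, 710 belonged to the members and 888 to IGKV9-128, where 40 of 928 unproductive clonotypes had a stop there.

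**Figure D3:**
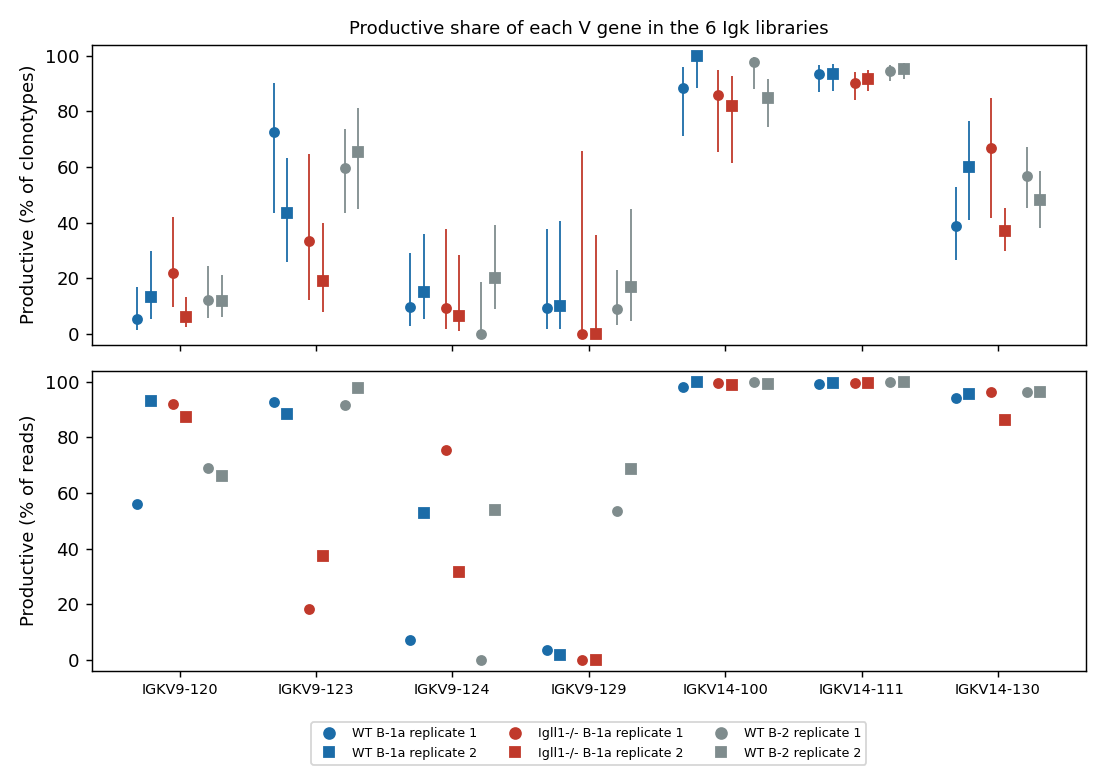
Productive share of each V gene in percent of its clonotypes (upper panel, with Wilson 95% intervals) and of its reads (lower panel), 1 point per library. IGKV14-100 and IGKV14-111 are above 80% in all libraries in both panels, while IGKV9-120 is at 5.13% to 21.7% of clonotypes and at 56.2% to 93.2% of reads.

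In 3 IGKV9 genes the productive flag went with the length of the representative sequence that the tables list for each clonotype. Of IGKV9-120 clonotypes with fewer than 140 bases 18 of 38 were productive, against 12 of 256 with at least 140 bases. In IGKV9-124 it was 7 of 13 against 5 of 97, and in IGKV9-129 7 of 10 against 0 of 66. The productive clonotypes of these genes had a median length of 126, 129 and 123 bases and a median identity to the V gene of 98.9%, 98.9% and 100%. The unproductive ones had a median length of 152 bases in each and an identity of 95.0%, 95.1% and 95.1%. In IGKV14-111 29 of 30 short and 921 of 988 long sequences were productive, and over all V genes it was 91.8% and 86.9%. The split at 140 bases was chosen after the lengths were seen. The part of sequence length in the productive share was not tested. With sequences of at least 140 bases alone, IGKV14-111 remained the single member called between the B-1a groups (0.83, edgeR adjusted p = 0.0253).

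**Figure D4:**
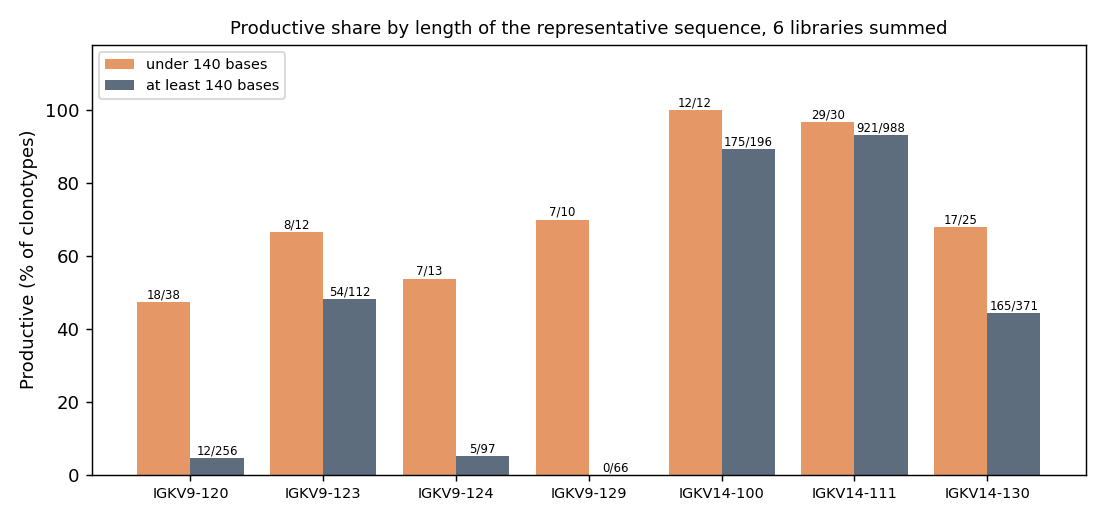
Productive share of the clonotypes of each V gene, by whether the representative sequence has fewer than 140 bases or at least 140, with the 6 libraries summed. Numbers above the bars are productive clonotypes of all in that class. In IGKV9-129 it is 7 of 10 short and 0 of 66 long sequences, and in IGKV14-111 29 of 30 and 921 of 988.

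Between the groups, 0 of 66 tested V genes (0%) differed in the odds of being productive in any comparison by edgeR, and so did 0 of the 6 members tested. IGKV9-129 had too few productive clonotypes to be tested. For Igll1-/- B-1a against WT B-2 cells 2 members had an unadjusted p under 0.05, and in the other comparisons none did. In IGKV9-123 8 of 11 and 10 of 23 clonotypes were productive in WT B-1a, 3 of 9 and 4 of 21 in Igll1-/- B-1a, and 22 of 37 and 15 of 23 in WT B-2 libraries. Both Igll1-/- libraries lay below the other 4. They held 33 and 43 reads of the gene, at a median identity to it of 90.2% and 91.2%, against 94.1% to 97.3% in the other libraries. Over the 6 libraries 9 IGKV9-123 clonotypes opened with QQSNSW, the main opening of IGKV5-48, and 8 with LQHGES, that of IGKV14-126. What these matches contribute to the productive share was not tested. The log2 odds ratio of IGKV9-123 for Igll1-/- B-1a against WT B-2 cells was −2.36 (SE 0.76, edgeR adjusted p = 0.419). In IGKV14-111 productive clonotypes were 90.3% and 91.7% in Igll1-/- B-1a against 94.5% and 95.1% in WT B-2 libraries, a log2 odds ratio of −0.82 (SE 0.32, edgeR adjusted p = 0.499).

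The J genes of the members were mostly those of the whole library. Over all clonotypes IGKJ5 took 49.1%, IGKJ1 24.6%, IGKJ2 23.8% and IGKJ4 1.19%. IGKJ5 led in IGKV9-120 (53.1%), IGKV14-111 (50.9%), IGKV9-123 (50.0%), IGKV14-130 (45.5%), IGKV9-129 (40.8%) and IGKV14-100 (38%). In IGKV9-124 IGKJ1 led with 40% and IGKJ5 took 31.8%. The pair with the most clonotypes, IGKV14-111 with IGKJ5, had 58 and 47 clonotypes in WT B-1a, 57 and 127 in Igll1-/- B-1a, and 117 and 112 in WT B-2 libraries. In IGKV14-100 Igll1-/- replicate 1 stood apart, with 14 of 21 clonotypes on IGKJ1 and 2 on IGKJ5.

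Of 202 V-J pairs tested, 21 (10.4%) were called between the B-1a groups, 25 (12.4%) for Igll1-/- B-1a against WT B-2 cells and 6 (2.97%) for WT B-1a against WT B-2 cells by edgeR. None of the 13 member pairs tested was among them. In these comparisons 3, 1 and 2 member pairs had an unadjusted p under 0.05, and DESeq2 was not run on pairs. Without Igll1-/- replicate 1, 5 member pairs were called between the B-1a groups, where 41 of 201 pairs were, with 1 Igll1-/- library in the fit.

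**Figure D5:**
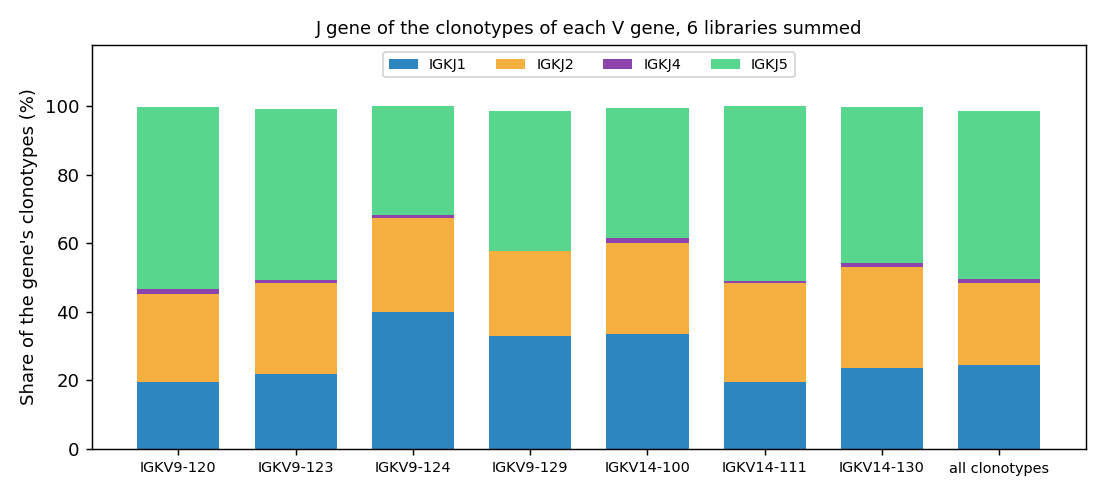
J gene of the clonotypes of each V gene and of all clonotypes, in percent with the 6 libraries summed; clonotypes with IGKJ3 or several J genes are not drawn. IGKJ5 is the largest part in all genes shown but IGKV9-124, where IGKJ1 takes 40%.

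To see which other genes followed the same course over the 6 libraries, each member's log2 shares of clonotypes, centred over the libraries, were compared with those of the 77 tested V genes that are not members. The nearest gene by Euclidean distance was IGKV6-32 for IGKV14-111 (0.60, where the median of the 77 was 1.49), and IGKV6-32 was likewise lowest in share in both WT B-1a libraries, at 0.456% and 0.531%. For IGKV14-130 it was IGKV4-58, at a distance of 1.5 (median 2.51), which had 28 clonotypes in Igll1-/- replicate 1 and 127 in replicate 2. IGKV8-27 was nearest to IGKV9-120 (0.75), IGKV4-74 to IGKV9-123 (0.37), IGKV10-94 to IGKV9-124 (0.44), IGKV1-132 to IGKV9-129 (0.65) and IGKV4-72 to IGKV14-100 (0.50). These distances describe 6 libraries and carry no test.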

How the data were processed

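The authors amplified rearranged *Igk* from genomic DNA (PCR products of 100 to 280 bp per the labels), used IMGT/High-V-QUEST to assign them, and deposited 1 table of clonotypes per library. The deposited tables give for each clonotype its V and J gene, CDR3, read count, percent identity to the V gene, productive flag and the length of a representative sequence; reference versions are not given in the sources used here. Clonotypes were counted once on their V gene, since the study compared proportions of clonotypes. Rows with several V genes stayed in the library total only. The 4 heavy-chain tables hold no *Igkv* gene and were not used.

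V genes and V-J pairs entered if 2 or more libraries had 10 or more clonotypes. The tool was edgeR 4.0.16 (R 4.3.3; glmQLFit and glmQLFTest), in 1 fit over the 6 libraries with total clonotypes as library size. Productive odds used both classes per library as columns, for V genes with at least 10 clonotypes of each class. DESeq2 1.42.0 was an alternative. An adjusted p under 0.05 was called. Scripts were tested on simulated data. Tables were handled with Python 3.11.15, pandas 2.3.3 and SciPy 1.17.1.

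Named were all members, the nearest gene of each, the largest clonotype per library, the leading productive CDR3 and the most frequent V-J pairs; further items were chosen after their values were seen. The members and lists were chosen with earlier results of these data known. Replicates were kept apart, as their clonotype counts differed beyond counting error: chi-square over V genes was 301 on 101 degrees of freedom in WT B-1a, 780 on 101 in Igll1-/- B-1a and 164 on 102 in WT B-2 libraries.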

Additional observations from a re-analysis of the deposited data

How the results depend on the processing

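The count of members called between Igll1-/- and WT B-1a cells was 1 in the report. By reads the count was 0, where 13 of 96 V genes were called. With the 4 libraries compared alone it was 0, where 9 of 80 V genes were called. With at least 10 reads 1 member was left to test and was not called, where 14 of 56 V genes were. The count was 2 with near-identical clonotypes merged (IGKV14-111 and IGKV14-130), where 17 of 80 V genes were called. Against WT B-2 cells the count of 0 for Igll1-/- B-1a cells became 1 with productive clonotypes (IGKV9-123). There 4 members were tested and 20 of 79 V genes were called. Without a filter it became 1 (IGKV9-129), where 23 of 103 V genes were called. The count of 0 for WT B-1a cells, where 3 of 84 V genes were called, became 1 in the following settings, always IGKV14-111. This held with productive clonotypes (4 of 79 V genes called, 4 members tested) and sequences of at least 140 bases (4 of 84). It also held with no filter (11 of 103), the 4 libraries alone (11 of 84) and the replicate block (8 of 84). Counts of member V-J pairs were 0 to 5, 0 to 2 and 0 to 3 with a library left out, where 1 to 41, 0 to 47 and 0 to 27 of all pairs were called, and 2 by reads for Igll1-/- B-1a against WT B-2 cells (IGKV9-129 with IGKJ1 and with IGKJ5), where 30 of 287 pairs were called. A group with a library left out has 1 library, assumed to vary like the other groups, so these counts show how the calls move and support no gene. In the Igll1-/- libraries the IGKV9-129 pairs called by reads had 1 and 0 reads (IGKJ1) and 0 and 1 reads (IGKJ5). Both pairs met the count filter only through WT libraries, so these calls give no separate support. Productive odds called 0 members in each setting, and with at least 10 reads 4 V genes were left to test, none of them a member. The cause of these changes was not tested.

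TMM moved the median of all genes by 0.26, 0.46 and 0.20 and DESeq2 by 0.23, 0.53 and 0.30, in the order of comparisons above, because their size factors differ from the clonotype totals. For Igll1-/- B-1a against WT B-2 cells the split of 6 genes higher and 13 lower became 7 and 1 with TMM and 8 and 1 with DESeq2. The following signs turned, in values that were not called. Between the B-1a groups, IGKV9-123 was 0.22 with TMM, 0.16 with DESeq2, 0.26 when merged, 0.68 in unproductive clonotypes and 0.0597 in sequences of at least 140 bases. IGKV14-100 was 0.0780 with TMM and 0.0613 with DESeq2, and IGKV9-124 was 0.0300 by reads. Against WT B-2 cells, Igll1-/- B-1a cells had IGKV14-111 at 0.46 with TMM, 0.52 with DESeq2, 0.28 when merged, 0.0398 with at least 2 reads and 0.59 in unproductive clonotypes. They had IGKV9-124 at 0.27 with TMM, 0.33 with DESeq2 and 0.17 by reads, IGKV9-123 at 0.16 when merged and 0.24 in unproductive clonotypes, and IGKV14-130 at −0.89 by reads. WT B-1a cells had IGKV9-124 at −0.34 when merged and −0.23 with at least 2 reads.

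With a library left out, log2 fold changes between the B-1a groups ranged from −0.27 to 1.32 for IGKV9-120, −0.60 to 0.61 for IGKV9-123 and −0.98 to 2.01 for IGKV14-130. Those of Igll1-/- B-1a against WT B-2 cells ranged from −0.76 to 0.82 for IGKV9-120, −0.45 to 0.11 for IGKV9-124, −0.19 to 0.15 for IGKV14-111 and −1.82 to 1.17 for IGKV14-130. Those of WT B-1a against WT B-2 cells ranged from −0.00736 to 0.55 for IGKV9-124 and −1.40 to 0.0849 for IGKV9-129. IGKV14-111 stayed positive between the B-1a groups in all 19 alternatives and was called in 12.

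Replicate numbers pair nothing in the labels, and same-numbered libraries' deviations had correlations of 0.03, −0.21 and 0.01 across 84 genes. With the number as a block, IGKV14-111 was 0.80 between the B-1a groups (edgeR adjusted p = 0.0292) and −0.82 for WT B-1a against WT B-2 cells (edgeR adjusted p = 0.0410). With the WT B-2 numbers exchanged, chosen after seeing the data as was the length split, 12 genes and 0 members were called for Igll1-/- B-1a against WT B-2 cells. Genes with under about 20 clonotypes in a library, such as IGKV9-129, allow only wide intervals.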
